A study of Mus musculus with 4 samples.

Results

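Heat shock proteins and their partner chaperones were examined in bulk RNA sequencing of 4 livers. They came from C57BL/6J males, 18 weeks old. All carried the same labels, the FAT-MASH diet and treatment with resolvin D1 (RvD1), so they form 1 group, called livers 1 to 4 after their titles. MASH stands for metabolic dysfunction-associated steatohepatitis, the disease that the diet models, and RvD1 is a lipid mediator made from docosahexaenoic acid. No livers without the diet or without RvD1 were analysed here, so the values below are levels and their spread between livers, with no test and no effect of either treatment.

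Members were chosen by name alone: symbols that begin with Dnaja, Dnajb, Dnajc, Hspa to Hsph, Hsp90, Cct or Bag followed by a digit, with Hspa5 left out. This gave 87 of the 24138 rows of the table. The name rule also took Hspg2, which encodes the basement membrane proteoglycan perlecan, and Hspb11, which encodes a subunit of the intraflagellar transport machinery. These 2 are not chaperones and are described apart. Tcp1, the first subunit of the chaperonin CCT, falls outside the rule by its name.

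Chaperones bind unfolded stretches of other proteins and let them go in cycles driven by ATP. The HSP70 proteins are loaded with clients by J proteins (the Dnaj genes), which trigger ATP hydrolysis, and are emptied by nucleotide exchange factors of the HSP110 and BAG families. HSP90 proteins act later on kinases and nuclear receptors, chaperonins enclose a folding protein inside a ring, and small HSPs hold unfolded proteins without ATP. Under proteotoxic stress the transcription factor HSF1 binds arrays of short inverted repeats, the heat shock elements, in front of many of these genes. Hepatocytes make large amounts of secreted and mitochondrial protein and depend on all of these systems.

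Values are FPKM, fragment numbers scaled to transcript length and sequencing depth, so that levels can be compared between genes per length. A gene with a mean of at least 1 FPKM over the 4 livers was called expressed. Summed FPKM lay between 516816 and 570681, highest in liver 4. The depth was estimated from the lowest values as about 18.8 to 20.1 M fragments per liver. The estimate is bounded by the window of values it was taken from, so it and the fragment numbers below are rough. A single fragment over 1 kb of effective length, the transcript length less 200 bases, is then worth 0.0498 to 0.0531 FPKM. Of 8 hepatocyte markers 7 were expressed, with Apoa1 at the highest mean of 12970 FPKM, while Alb was listed at 0 in every liver, which cannot be read as absence in liver and bears on how far a listed 0 can be trusted. Fewer cells of a type and less RNA per cell cannot be told apart in bulk tissue.

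Most of the chaperone repertoire was transcribed in these livers. Of the 87 members 70 (80.5%) were expressed, beside 43.7% of all rows in the table, and 6 (6.90%) reached 100 FPKM, beside 3.35% of all rows. These 6 were Hspa8 (549 ± 28.3 FPKM), Hsp90ab1 (490 ± 29.9 FPKM), Hsp90b1 (230 ± 24.9 FPKM), Hspd1 (215 ± 16.9 FPKM), Hspa9 (194 ± 27.3 FPKM) and Hspe1 (151 ± 15.2 FPKM; each SD, n = 4). They held 55.6% of the summed FPKM of all members. A further 38 members had means from 10 to under 100 FPKM, and 26 had means from 1 to under 10 FPKM. The members together accounted for 0.598% to 0.642% of summed FPKM, lowest in liver 2 and highest in liver 1, with a mean of 0.616% ± 0.0184 (SD, n = 4).

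The order of the abundant members was partly fixed. Hspa8 lay above Hsp90ab1 in all 4 livers although their ranges overlapped, and Hsp90ab1 lay above every lower member with no overlap of ranges. Hsp90b1, Hspd1 and Hspa9 overlapped in their ranges, with Hsp90b1 above Hspd1 in 3 of 4 livers and Hspd1 above Hspa9 in all 4. Hspe1 was separated from Hspa9 above it and from Dnajc19 (87.4 ± 11.3 FPKM, SD, n = 4) below it. Among the next members, from Dnajc19 to Cct7, each range overlapped that of its neighbour in the order.

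**Figure D1:**
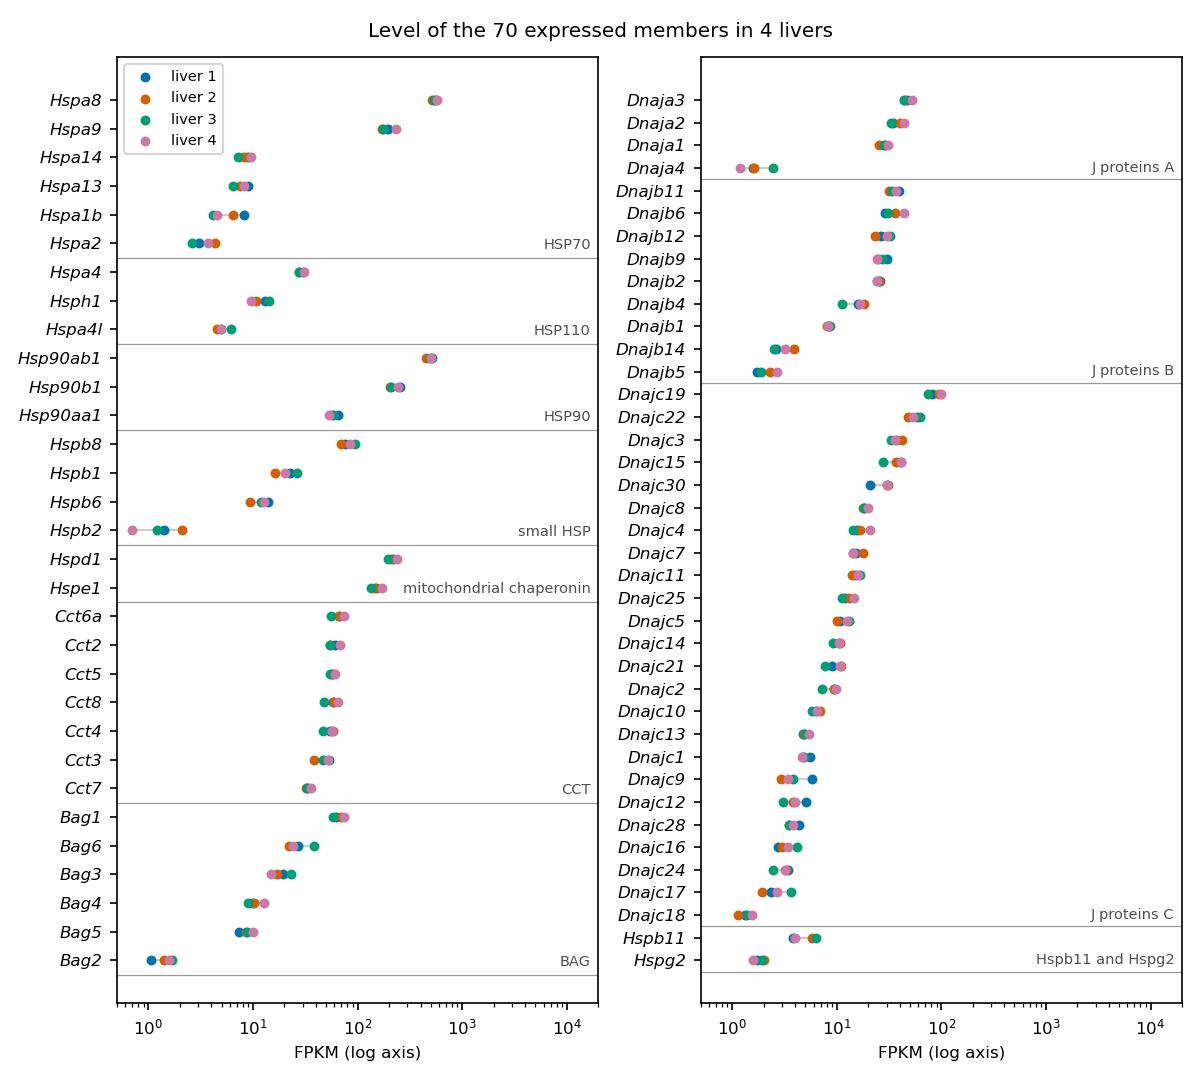
Level of the 70 expressed members in each of the 4 livers, with FPKM on a log axis, 1 point per liver and a grey line from the lowest to the highest liver, grouped by role. The 6 members above 100 FPKM are HSP70, HSP90 and mitochondrial chaperonin genes, while the 7 expressed CCT genes lie close together between 33.5 and 65.9 FPKM in their means.

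The HSP70 transcripts were dominated by the constitutive forms. Hspa8 (XLOC_021862, chr9:40801273-40805199), which encodes the constitutive cytosolic HSP70 called HSC70, had 564, 518, 534 and 580 FPKM in livers 1 to 4. Its highest liver was 1.12-fold above its lowest, so the 4 livers were close. Hspa9, which encodes the mitochondrial HSP70 mortalin, had 197, 172, 176 and 232 FPKM, with liver 4 above the others. Hspa14, a partner of the J protein Dnajc2 at the ribosome, had 9.05, 8.20, 7.199 and 9.54 FPKM, lowest in liver 3. Hspa13, an HSP70-like protein of the endoplasmic reticulum, had 7.80 ± 1.10 FPKM (SD, n = 4). Hspa2, best known from the testis, had 3.41 ± 0.730 FPKM (SD, n = 4). The testis germ cell markers Prm1 and Tnp1 were listed at 0 in all 4 livers and Ddx4 did not pass 0.0485 FPKM.

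The stress-inducible HSP70 genes were low and differed between livers. Hspa1b (XLOC_009383, chr17:34956429-34959238) had 8.22, 6.40, 4.16 and 4.50 FPKM in livers 1 to 4. Its neighbour Hspa1a (XLOC_009384, chr17:34969359-34972156) had 1.02, 0.691, 0.433 and 0.170 FPKM. Livers 1 and 2 were above livers 3 and 4 for both genes, and liver 1 was highest under each scaling tried. The coding regions are near-identical: 48.6% of all 100-base windows of the Hspa1a transcript were also found in another gene's transcript, Hspa1b or Hspa1l, and 49.9% of those of Hspa1b in Hspa1a or Hspa1l. How the authors' counting divided shared reads is not given in the sources used here, so the split between the 2 genes is uncertain, and their sum is the safer value. The sum was 9.24, 7.09, 4.59 and 4.67 FPKM, a 2.01-fold range. Hspa8 exceeded this sum 61.1, 72.9, 116 and 124 times in livers 1 to 4. Sharing with other genes is not limited to this pair: 11 members had at least 10% of their windows in another gene's transcript, among them Hspa8 (62.8%), Hsp90aa1 (47.5%), Hspb1 (42.7%), Hspd1 (26.9%) and Hspe1 (20.4%), so their levels and ratios carry the same uncertainty.

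The 2 inducible genes also have near-identical promoters. The 150 bases in front of the RefSeq starts of both genes (GRCm38.p6, minus strand) are shown because they are almost the same sequence: 149 of the 150 bases are identical. They lie outside annotated exons, so the RNA values do not cover them. Capitals mark the only match in each to a pair of inverted heat shock units, GAANNTTC or TTCNNGAA, which read the same on both strands.
Hspa1b, chr17:34959239-34959388: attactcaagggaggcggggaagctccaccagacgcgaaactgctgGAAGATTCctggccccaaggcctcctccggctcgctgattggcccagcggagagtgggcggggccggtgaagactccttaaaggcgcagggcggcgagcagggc
Hspa1a, chr17:34972157-34972306: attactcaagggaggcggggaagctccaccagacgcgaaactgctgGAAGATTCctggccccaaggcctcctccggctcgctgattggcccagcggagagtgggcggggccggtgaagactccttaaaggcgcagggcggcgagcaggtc
The match lies 104 to 97 bases before the start in both. Such a pair occurs in 12.8% of the 32851 RefSeq promoter windows of 250 bases before a start. Counted by gene, it occurs in 14.5% of the 27025 genes with a window, in 17 of the 71 members that have 1 (23.9%), and in 8 of the 11 stress-inducible members that do. A match is a stretch of letters and not evidence of binding.

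The lowest values of these genes rest on few fragments. Hspa1a stood for an estimated 57.0, 37.0, 23.4 and 8.84 fragments, and without liver 4 its highest-to-lowest ratio went from 6.04 to 2.36. Hspa1l (XLOC_008821), a testis-rich relative that starts next to Hspa1a on the opposite strand, had 0.908, 0.792, 0.632 and 0.317 FPKM, again with livers 1 and 2 above livers 3 and 4. Its ratio was 2.86, and 1.44 without liver 4. Of 12 immediate early genes, which respond to tissue handling and growth signals, 9 were expressed, and 6 of these lay above their mean in liver 1, 7 in liver 2, and 3 each in livers 3 and 4. Dusp1 and Ier2 went the other way, lowest in liver 1 and highest in liver 3. The 9 had median deviations of 0.15, 0.22, -0.15 and -0.43 on the log2(FPKM + 1) scale in livers 1 to 4, and all 12 together had summed levels of 144, 163, 142 and 108 FPKM. The stellate and smooth muscle markers, 7 of 8 expressed, had median deviations of 0.17, 0.07, -0.21 and -0.20, and all 8 had summed levels of 190 to 294 FPKM. The endothelial markers, 6 of 6 expressed, had median deviations of -0.23, 0.33, -0.09 and 0.09, and the macrophage markers, also 6 of 6, -0.09, 0.17, -0.21 and 0.15, with liver 1 below the mean in both. Of 5 erythroid markers 2 were found, in 3 rows, with median deviations of 0.58, 0.14, -0.82 and 0.01 and summed levels of 1076, 829, 427 and 705 FPKM. Both rows of the globin gene Hba-a1 were highest in liver 1 and lowest in liver 3, while Alas2 was highest in liver 3. The part of any of these lists in the differences of Hspa1a and Hspa1b was not tested.

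The nucleotide exchange factors of the HSP110 family spanned a wide range of levels. Hspa4 had 29.8, 27.4, 27.4 and 30.7 FPKM in livers 1 to 4 and was nearly level. The inducible Hsph1 (XLOC_017008, chr5:149616845-149636315) had 13.1, 10.6, 14.3 and 9.61 FPKM, with livers 1 and 3 above livers 2 and 4. Hspa4l, the third member of the family, had 4.98, 4.55, 6.12 and 4.96 FPKM, with liver 3 apart from the other livers.

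All 6 BAG genes were expressed. Bag1, whose protein couples HSP70 to the proteasome, was the most abundant, with 62.1, 69.8, 58.8 and 73.5 FPKM in livers 1 to 4. Bag6, whose protein guards membrane and secretory proteins that fail to reach the endoplasmic reticulum, had 27.1, 21.9, 38.3 and 24.3 FPKM, with liver 3 above the rest. Bag3, which together with HSPB8 sends aggregated clients to autophagy, had 19.4, 16.8, 23.1 and 14.8 FPKM, also highest in liver 3. Bag4, an inhibitor of death receptor signalling, had 10.5 ± 1.60 FPKM, and Bag5 8.70 ± 1.09 FPKM (each SD, n = 4). Bag2, an inhibitor of the ubiquitin ligase CHIP, was lowest at 1.43 ± 0.266 FPKM (SD, n = 4).

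Among HSP90 genes the constitutive cytosolic form prevailed. Hsp90ab1 (XLOC_009488, chr17:45567778-45573261) had 520, 449, 490 and 501 FPKM in livers 1 to 4. The inducible form Hsp90aa1 (XLOC_005044, chr12:110691036-110696395) had 64.5, 56.4, 57.6 and 53.6 FPKM. The ratio of the constitutive to the inducible form was 8.06, 7.97, 8.50 and 9.36, so the same form prevailed by a like factor in each liver. Hsp90b1, which encodes GRP94 of the endoplasmic reticulum, had 256, 206, 211 and 246 FPKM, with livers 1 and 4 above livers 2 and 3. It stood to Hspa5, the HSP70 of the same compartment, at a ratio between 0.964 and 1.16.

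Co-chaperones of HSP90 outside the name rule were also expressed. Fkbp4, an immunophilin of steroid receptor complexes, had 62.9, 60.3, 77.4 and 59.3 FPKM and Ahsa1, which stimulates the ATPase of HSP90, 53.2, 53.2, 61.1 and 54.4 FPKM, both highest in liver 3. Stip1, the bridge between HSP70 and HSP90, had 37.4, 27.9, 41.4 and 28.5 FPKM, with livers 1 and 3 above livers 2 and 4 as for Hsph1 and Bag3. Fkbp5, a glucocorticoid-induced co-chaperone, had 7.31, 16.1, 8.80 and 12.1 FPKM. All 41 genes of this wider chaperone network were expressed, and Fkbp5 was the only 1 of them with a highest-to-lowest ratio of at least 2.

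Small heat shock proteins were led by Hspb8 (XLOC_016772, chr5:116408491-116422864), the partner of BAG3, with 76.0, 69.4, 95.3 and 84.4 FPKM in livers 1 to 4. Hspb1, which encodes HSP25 in mice, had 22.8, 16.3, 26.4 and 20.4 FPKM. Hspb6, known from muscle, had 13.9, 9.44, 11.9 and 12.8 FPKM. Liver 2 was lowest for these 3 genes, and liver 3 highest for Hspb8 and Hspb1. Hspb2, a muscle small HSP, had 1.42, 2.10, 1.21 and 0.696 FPKM, with the highest liver 3.02-fold above the lowest, or 1.74-fold without liver 4, and an estimated 7.52 to 23.3 fragments. Its span is shared with Cryab, the neighbouring small HSP gene, at 6.74, 7.11, 9.38 and 4.72 FPKM, and whether strand was used in counting is not given in the sources used here. The 5 skeletal and cardiac muscle markers summed to between 0.151 and 0.925 FPKM, none of them was expressed and Myh6 was listed at 0 in every liver. Hspb7 had 0.121 ± 0.0328 FPKM (SD, n = 4) and Hspb9 was listed at 0, 0.0943, 0.268 and 0 FPKM.

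The 150 bases in front of the Hspb1 start (RefSeq, GRCm38.p6, plus strand) are shown beside those of the Hspa1 pair, since Hspb1 and Hspa1b are both inducible genes whose order of livers differed. Capitals again mark pairs of inverted heat shock units, of which Hspb1 holds 2. The share of all windows that hold 2 pairs was not counted, and a link between the pairs and the order of livers was not tested.
Hspb1, chr5:135887769-135887918: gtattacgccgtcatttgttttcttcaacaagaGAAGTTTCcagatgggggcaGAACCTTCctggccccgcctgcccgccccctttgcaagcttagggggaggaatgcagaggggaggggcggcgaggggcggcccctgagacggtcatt

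The stress-inducible genes lay mostly above their means in liver 1 and below them in liver 2, with no shared direction in livers 3 and 4. The list held 13 members known as targets of the heat shock response, of which 12 were expressed. Their median deviations from the gene means were 0.05, -0.06, -0.00 and -0.02 on the log2(FPKM + 1) scale in livers 1 to 4, beside -0.01, -0.02, -0.01 and 0.04 for all 10541 expressed genes. These medians are small and unsteady: that of liver 1 was 0.0091 without liver 2, and that of liver 4 was -0.11 with equal summed FPKM and 0.019 without liver 3. In liver 1, 10 of 12 lay above their mean, beside 47.2% of all expressed genes, and in liver 2, 2 of 12, beside 45.1%. Livers 3 and 4 had 6 and 5 of 12 above the mean, beside 47.0% and 60.8%. The wider chaperone network outside the name rule had a like profile, with medians of 0.05, -0.06, -0.01 and 0.00, and 27 of its 41 genes above their mean in liver 1 and 13 in liver 2. Within the list the order of livers differed: as deposited, Hspa1b and Hsp90aa1 were highest in liver 1, Dnajb4 in liver 2, Hsph1, Bag3, Hspb1, Hspa4l and Dnajb1 in liver 3, and Hspa8, Hspd1, Hspe1 and Dnaja1 in liver 4. The lowest liver of Hspa1b was liver 3 as deposited and liver 4 with equal summed FPKM. Dnajb1, the cytosolic J protein that serves HSP70 under stress, had 8.46, 8.06, 8.57 and 8.31 FPKM, the smallest spread of any expressed member as deposited, at 0.03 on the log2 scale. The SD of its FPKM was 2.65% of the mean, under the 4.69% that counting its estimated fragments alone would give, so this rank may be chance. With equal summed FPKM its highest-to-lowest ratio was 1.14, above that of Cct7 (1.03), Cct5 (1.06) and Hspa8 (1.09). Hsf1, the regulator of this response, had 8.54, 6.23, 9.15 and 7.68 FPKM, and Hsf2 8.36, 6.75, 4.84 and 7.77 FPKM. The activity of either factor cannot be read from its transcript.

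**Figure D2:**
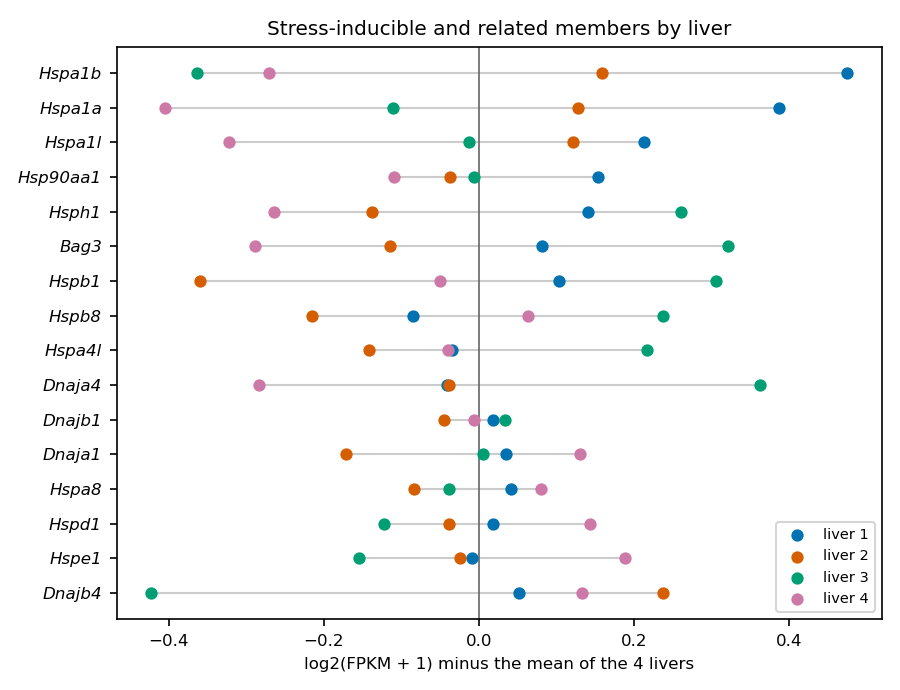
Deviation of log2(FPKM + 1) from the mean of the 4 livers for 16 stress-inducible and related members, 1 point per liver, with a grey line from the lowest to the highest. Hspa1b and Hspa1a are highest in liver 1, Hsph1, Bag3, Hspb1, Hspb8, Hspa4l and Dnaja4 in liver 3, and the points of Dnajb1 lie close to 0.

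The mitochondrial chaperonin genes kept a near-constant proportion. Hspd1 (XLOC_000802, chr1:55077834-55087932), which encodes the ring protein HSP60, had 217, 209, 197 and 237 FPKM in livers 1 to 4. Hspe1 (XLOC_000121, chr1:55088148-55091317), which encodes its lid HSP10, had 149, 148, 135 and 171 FPKM. Liver 4 was highest and liver 3 lowest for both genes, and the ratio of Hspd1 to Hspe1 was 1.45, 1.41, 1.46 and 1.38, a 1.06-fold range, while each gene alone ranged 1.20-fold and 1.27-fold. A steady ratio was not particular to this pair: that of Hspa8 to Hsp90ab1 was 1.09, 1.15, 1.09 and 1.16, a 1.07-fold range. Hspd1 and Hspe1 both stayed highest in liver 4 and lowest in liver 3 with the livers set to equal summed FPKM. As deposited, this order of highest and lowest liver was found in 14.3% of all expressed genes and in 14 of the 70 expressed members.

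Hspd1 and Hspe1 stand head to head, with 215 bases between their main RefSeq starts. The 30 bases around the heat shock units of this interval are shown because they lie in front of both genes (GRCm38.p6, plus strand). Capitals mark a run of 4 alternating units, TTCNNGAANNTTCNNGAA.
Hspd1 to Hspe1, chr1:55088053-55088082: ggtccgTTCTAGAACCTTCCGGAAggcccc
The run spans bases 89 to 72 before the start of Hspe1 and bases 127 to 144 before that of Hspd1. A run of 4 units in either orientation was found in 7 of the 32851 promoter windows (0.0213%), of which the windows of Hspd1 and Hspe1 hold the same site. Runs of 3 units, GAANNTTCNNGAA or TTCNNGAANNTTC, occurred in 0.466% of windows and in 1 further member, Dnajb6. An additional RefSeq start of Hspd1 and a minor GENCODE transcript begin on the other side of the run, so that it lies downstream of their starts.

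Apart from Hspa9, the other members of the mitochondrial system described here lay below the chaperonin. Dnajc19, a J protein of the protein import motor, had 81.0, 94.6, 74.96 and 99.1 FPKM in livers 1 to 4, and its span is shared with Fxr1. Dnaja3, the J protein of mortalin in the matrix, had 46.6, 43.7, 44.3 and 52.9 FPKM, and Dnajc15, a relative of Dnajc19 that has been tied to the control of respiration, 41.1, 36.6, 27.9 and 40.7 FPKM. Liver 3 was lowest for Dnajc19 and Dnajc15, and liver 4 highest for Dnajc19 and Dnaja3. The HSP90 homologue Trap1 had 114, 95.7, 102 and 120 FPKM. The exchange factors of mortalin differed in level, with Grpel1 at 32.8, 32.9, 34.9 and 37.4 FPKM and Grpel2 at 10.7, 11.3, 6.92 and 12.1 FPKM.

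The subunits of CCT, the cytosolic chaperonin that folds actin and tubulin and is built from equal numbers of 8 subunits, were transcribed at like levels. The 7 expressed members had means from 33.5 ± 1.60 FPKM for Cct7 to 65.9 ± 7.21 FPKM for Cct6a (each SD, n = 4). Within a liver the highest exceeded the lowest 2.02, 2.07, 1.71 and 2.05 times in livers 1 to 4. Cct2 had 60.7, 54.6, 54.1 and 68.5 FPKM, Cct8 57.8, 59.7, 47.7 and 65.2 FPKM and Cct6a 66.7, 67.1, 56.3 and 73.7 FPKM. Liver 4 was highest for these 3 and liver 3 lowest. Cct5 was nearly level at 58.7, 57.4, 54.9 and 60.2 FPKM, as was Cct7 at 33.1, 32.3, 32.9 and 35.9 FPKM. Tcp1, outside the name rule, had 61.6, 62.0, 54.7 and 71.8 FPKM, in the range of the other subunits.

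With Tcp1, 6 of the 8 subunits were highest in liver 4 and 6 were lowest in liver 3. Liver 4 was the highest liver for 33.3% of all expressed genes, and liver 3 the lowest for 31.4%. With the livers divided by their median ratios both counts were again 6 of 8, beside 27.1% and 30.1% of all expressed genes. With the livers set to equal summed FPKM, 3 of the 8 subunits were highest in liver 4 and 4 were lowest in liver 3, beside 15.6% and 25.3%. The exceptions at the top were Cct3 (52.8, 38.5, 46.2 and 52.2 FPKM) and Cct4 (54.3, 57.8, 47.1 and 56.6 FPKM). The median SD of the 7 members on the log2(FPKM + 1) scale was 0.16, and 0.080 without liver 3. Of the 7 expressed hepatocyte markers, Apoa1, Fabp1, Ttr and Cyp2e1 were also highest in liver 4, while Ass1 and Hnf4a were highest in liver 3 and Pck1 in liver 1. The summed level of the hepatocyte markers was 45151 FPKM in liver 4 and 33873 to 38092 FPKM in the others. Among the macrophage markers, Cd68, Trem2, Clec4f and Lyz2 were also highest in liver 4, while Adgre1 and Csf1r were highest in liver 2. The part of either list in the CCT values was not tested. The paralogue Cct6b, known from the testis, had 0.296 ± 0.0968 FPKM (SD, n = 4), and Cct8l1 was listed at 0 in 3 livers and at 0.0994 FPKM in liver 2.

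**Figure D3:**
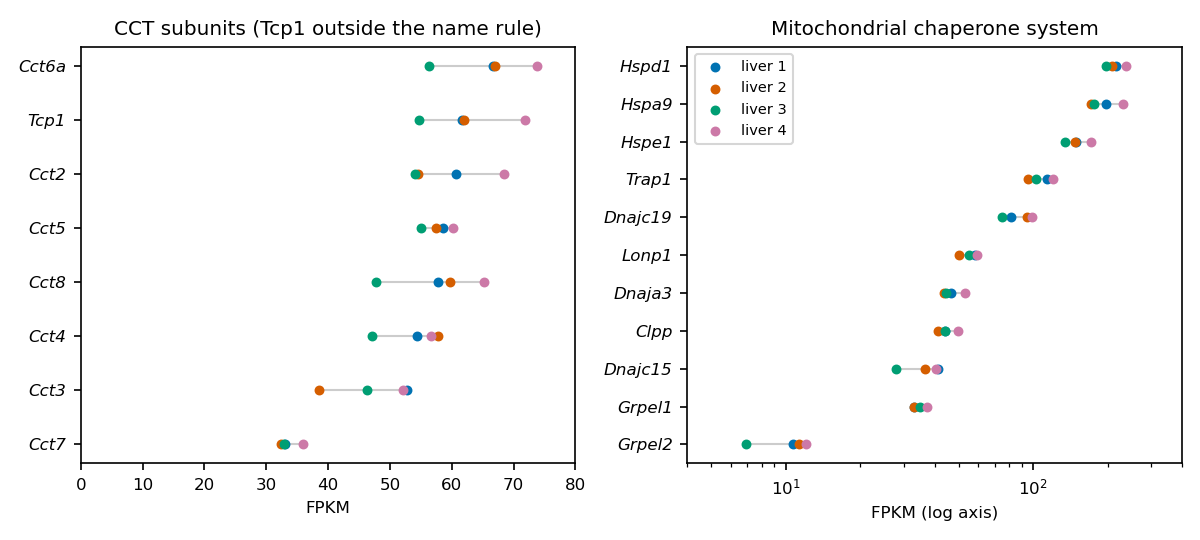
FPKM of the CCT subunits on a linear axis (left) and of mitochondrial chaperones on a log axis (right), 1 point per liver with a grey line from the lowest to the highest. The subunits other than Cct7 and Cct3 overlap between 47.1 and 73.7 FPKM, and liver 4 is highest for 6 of the 8 subunits as deposited and with median ratios, and for 3 with equal summed FPKM.

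Of the J proteins, 37 of 45 were expressed. The 4 of class A, which resemble bacterial DnaJ in full length, were all expressed. Dnaja2 had 34.1, 39.9, 32.7 and 43.8 FPKM and Dnaja1 29.1, 25.1, 28.5 and 31.2 FPKM in livers 1 to 4, both with liver 4 highest. Dnaja4 had 1.60, 1.60, 2.43 and 1.19 FPKM, with liver 3 above the others and a highest-to-lowest ratio of 2.04, or 1.34 without liver 3.

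In class B, 9 of 13 genes were expressed. The endoplasmic reticulum co-chaperones of Hspa5 in this class were Dnajb11, with 39.6, 31.9, 33.8 and 36.6 FPKM, and Dnajb9, an inducible gene of the unfolded protein response, with 30.03, 24.8, 27.2 and 24.4 FPKM, both highest in liver 1. Dnajb11 shares its span with Ahsg, which encodes the plasma protein fetuin-A. Dnajb6, an inhibitor of protein aggregation, had 28.8, 36.4, 30.6 and 44.3 FPKM, with liver 4 above the others. Dnajb2, which hands clients to the proteasome, had 25.8, 25.4, 23.97 and 24.4 FPKM and was nearly level. Dnajb4, a cytosolic relative of Dnajb1, had 15.8, 18.2, 11.1 and 16.8 FPKM, with liver 3 below the others. Dnajb12, anchored in the membrane of the endoplasmic reticulum, had 26.3, 23.0, 32.0 and 30.3 FPKM, and its relative Dnajb14 had 3.06 ± 0.628 FPKM (SD, n = 4).

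Class C is united only by the J domain, and 24 of its 28 genes were expressed. Below Dnajc19 its most abundant gene was Dnajc22, a membrane protein of little-known function, with 58.1, 47.6, 62.6 and 53.0 FPKM. Dnajc3, the endoplasmic reticulum protein P58IPK, had 37.2, 42.2, 33.2 and 35.7 FPKM, with liver 2 highest, unlike Dnajb9 and Dnajb11. Dnajc10, a disulfide reductase of the same compartment, had 6.36 ± 0.469 FPKM (SD, n = 4). Dnajc12, the co-chaperone of phenylalanine hydroxylase and related enzymes, had 5.04, 3.79, 3.08 and 4.00 FPKM, with liver 1 highest. Dnajc9, a histone chaperone, had 5.78, 2.91, 3.85 and 3.42 FPKM, a ratio of 1.99, or 1.33 without liver 1. Dnajc2, which docks HSP70 at the ribosome, had 9.34, 9.41, 7.29 and 9.75 FPKM, with liver 3 apart below the others. Dnajc30, a mitochondrial protein whose gene lies within a span shared with Wbscr22, had 20.7, 30.8, 30.1 and 30.1 FPKM, with liver 1 apart below the others. These were the 2 of 70 members whose extreme liver passed Dixon's critical value for a gap over the range, beside 5.64% of all expressed genes. With equal summed FPKM neither passed, and Cct6a, Dnaja1 and Dnajc28 did, beside 5.63% of all expressed genes. Dnajc13, which acts on endosomes, Dnajc8, found in the spliceosome, and Dnajc14 had log2 SDs under 0.1.

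By the SD of log2(FPKM + 1) the members varied between livers about as much as all expressed genes. The median SD was 0.16 over the 70 expressed members and 0.16 over all 10541 expressed genes, with 10th and 90th percentiles of 0.08 and 0.28 for members and 0.08 and 0.30 for all. The sets were not matched for level, and the added 1 shrinks the SD of low genes. The median of the members' means was 16.2 FPKM, and the value for all genes was not recomputed with other pseudocounts. Hspb2 and Dnaja4 were the 2 of 70 members with a highest-to-lowest ratio of at least 2 (2.86%), beside 6.54% of all expressed genes. Without liver 4 no member reached this ratio, and without liver 3 only Hspb2 did. By class the median SD ran from 0.11 for the 3 HSP90 genes to 0.25 for the 4 expressed small HSP genes. The largest SDs were those of Hspa1b (0.39), Hspb2 (0.36), Dnajc9 (0.34) and Bag6 (0.34).

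By liver, 26 of the 70 members were highest in liver 4 (37.1%), beside 33.3% of all expressed genes. With the livers divided by their median ratios it was again 26 of 70, beside 27.1%. With equal summed FPKM it was 14 of 70, beside 15.6%, and liver 1 then held the most, 21 of 70, beside 21.8%. As deposited, in liver 3 it was 16 (22.9%), beside 26.8%, in liver 1 also 16, beside 17.9%, and in liver 2 it was 12 (17.1%), beside 22.0%. The median deviation of the members was 0.01, -0.04, -0.07 and 0.09 in livers 1 to 4. Of the 70, 51 lay above their mean in liver 4 (72.9%), beside 60.8% of all expressed genes, and 24 in liver 3 (34.3%), beside 47.0%. These deviations and counts are as deposited and were not recomputed under the other scalings. On the log2 scale the summed FPKM of liver 4 itself lay 0.097 above the mean of the livers. The 13 members that were highest in liver 3 and lowest in liver 2 or 4 included Bag3, Hspb8, Hspb1, Hsph1, Hspa4l and Dnaja4. These 6 were highest in liver 3 under each scaling tried. As deposited, the order of the 13 was seen in 19.9% of all expressed genes and in 18.6% of the members.

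**Figure D4:**
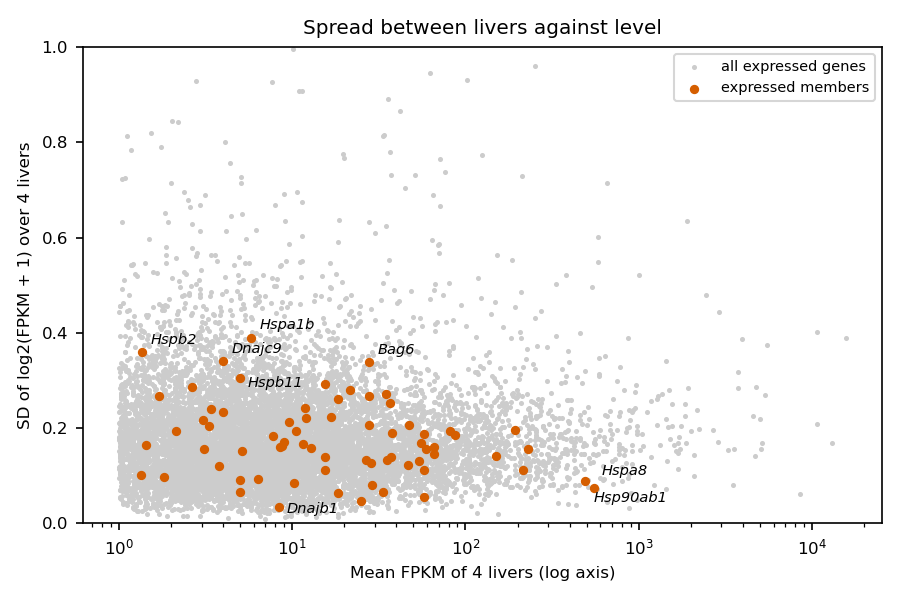
SD of log2(FPKM + 1) over the 4 livers against mean FPKM on a log axis, for all 10541 expressed genes (grey) and the 70 expressed members (orange). The 29 genes with an SD above 1 lie outside the axis and none of them is a member, and the members lie between 0.03 for Dnajb1 and 0.39 for Hspa1b.

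The remaining 17 members had means under 1 FPKM. The nearest below the limit were Hspa1l (0.662 FPKM) and Hspa1a (0.580 FPKM), and the nearest above it were Dnajc18 (1.34 FPKM) and Hspb2 (1.36 FPKM). In all, 8 of the 17 were above 0 in every liver, among them Hspa12a (0.299 ± 0.0873 FPKM) and Hspa12b (0.375 ± 0.140 FPKM), distant HSP70 relatives known from brain and endothelium, and Dnajc27 (0.258 ± 0.0965 FPKM; each SD, n = 4). Another 5 were listed above 0 in some livers only, beside 9.72% of all rows, and Dnajb8, Dnajc5b, Dnajc5g and Hspb3 were listed at 0 in all 4. Listed zeros were rarer than in the table as a whole, where 32.2% of rows were at 0 in all livers. Dnajb13, known from motile cilia and sperm tails, had 0.105, 0.109, 0.485 and 0.236 FPKM, or about 5.04 to 22.7 fragments, highest in liver 3.

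The 2 genes that only share the name were both expressed. Hspg2 had 1.72, 2.01, 1.92 and 1.59 FPKM, and Hspb11 had 3.84, 5.73, 6.34 and 3.97 FPKM with livers 2 and 3 above livers 1 and 4. Leaving them out gives 68 chaperone and co-chaperone genes expressed of 85.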

How the data were processed

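Poly(A)-enriched liver RNA was sequenced, per the labels' protocols. Per the submitters' processing notes, FastQC 0.10.1, Trim Galore 0.6.3, cutadapt, STAR 2.7.6a, Cufflinks 2.2.1 and mm10 were used, with no role, option or annotation given. The deposited values were taken as FPKM made by the authors, from the values, their Cufflinks-style identifiers and these notes. The sources used here do not state how multi-mapped reads or strand were treated. Columns were matched to livers by the descriptions in the labels, with 0 left over. Starts had 1 added, after which 51.5% of 22954 RefSeq (GRCm38.p6) symbols had equal starts, against 2.96% as deposited. RefSeq held all 87 members, and 71 had a promoter window. Spans overlap in places: 14 members share their span with a gene other than a small RNA.

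Genes averaging 1 FPKM or more over the livers count as expressed. Analysis used Python 3.11.15, numpy 2.4.6, pandas 2.3.3 and matplotlib 3.10.9. Spreads are SDs of log2(FPKM + 1), where the added 1 shrinks differences between low values. Depth was estimated as the inverse of FPKM times effective length (transcript length minus 200 bases), from the median of such products between 25 and 75 over 3436 genes with 1 GENCODE vM21 transcript longer than 800 bases. This takes 1 fragment to fall in that window, so depth and fragment numbers are approximate. The window bounds the estimate, so a depth far from it could not have been seen. FPKM hold no counts, and no count test was run. Dixon's ratio, the gap of the extreme liver over the range, was set against the critical value for 4 samples, and the procedures were tested on simulated data. The order of livers and the gap ratios under other scalings were added after seeing the data, as was the sum of Hspa1a and Hspa1b. Other alternatives were other pseudocounts, filters and scalings, and leaving out each liver. Members and lists were chosen with earlier results of these data known. Named in full were the 3 most abundant members of each role, all stress-inducible members, and all expressed members that passed a ratio of 2 or Dixon's value. Others were named after their values were seen. The labels number 4 livers and do not say how many animals or cages they come from.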

Additional observations from a re-analysis of the deposited data

Results flagged for a closer look

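In each of 146 sets of 4 values (83 members listed above 0 in some liver, 41 network genes, 10 ratios and 12 sums) the gap of the extreme liver was divided by the range, and 10 sets passed Dixon's critical value. Chance passes it in about 1 in 20 sets. Among expressed members it was passed by 2 of 70 (2.86%), beside 5.64% of all expressed genes. These were Dnajc30, with liver 1 low (gap ratio 0.931), and Dnajc2, with liver 3 low (gap ratio 0.833). Cct8l1 (gap ratio 1) was listed above 0 in liver 2 alone and Dnajc6 (gap ratio 1) in liver 3 alone, the latter at 0.0606 FPKM. A gene listed above 0 in a single liver has a gap ratio of 1 by construction, so these 2 of the 10 say nothing beside the share that chance gives. Of the network genes, Ahsa1 was high in liver 3 (gap ratio 0.848). St13, a partner of HSP70, was high in liver 1, with 74.8, 60.5, 60.3 and 62.7 FPKM (gap ratio 0.837).

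Liver 4 stood apart in the ratio of Hspa1b to Hspa1a, at 8.02, 9.26, 9.59 and 26.5 (gap ratio 0.915), where Hspa1a stands for an estimated 8.84 fragments. It also stood apart in the ratio of Hspb8 to Bag3, at 3.92, 4.13, 4.13 and 5.71 (gap ratio 0.883), and in the summed FPKM of the class A J proteins, at 111, 110, 108 and 129 (gap ratio 0.837). Liver 3 was low in the ratio of the highest to the lowest of the 7 CCT members (gap ratio 0.845). With equal summed FPKM the gap ratios of Dnajc30 (0.681), Dnajc2 (0.758), Ahsa1 (0.712), St13 (0.790) and the class A sum (0.794) all fell under the critical value, while with median ratios these 5 stayed above it. Ratios within a liver do not change with these scalings.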

How the results depend on the processing

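No paired analysis was possible because the 4 livers form a single group. The count of members with a highest-to-lowest ratio of at least 2 moved most: from 2 to 9 with a minimum mean of 0.1 FPKM, to 9 with every member above 0 in all livers, to 0 with a minimum of 5 FPKM, and between 0 and 2 with each liver left out. The members' share of summed FPKM rose from 0.616% to 1.07% without the 100 rows of highest mean, since the sum then holds fewer rows. Leaving out each liver gave a median CCT SD between 0.080 and 0.19, the lowest without liver 3. The median SD of the expressed members lay between 0.12 and 0.18 over all settings. Of 259 recomputed highest-to-lowest ratios of 43 named members 254 were within 1.5 times the value as deposited. Many of these could not have moved further, so the count says little about stability. Leaving out a liver cannot move a ratio under 1.5 that far, and the summed FPKM of each liver was 0.969 to 1.07 times their mean. The 5 that moved were Dnaja4, Dnajc9, Hspa1a, Hspa1l and Hspb2, each with a liver left out. The counts of members and CCT subunits highest in liver 4 were the same with median ratios and fell with equal summed FPKM, as given beside them. The members past Dixon's value were Dnajc2 and Dnajc30 as deposited and with median ratios, and 3 others with equal summed FPKM. The median deviations of the stress-inducible members ran from 0.0091 to 0.070 in liver 1 and from -0.067 to -0.036 in liver 2. They changed sign in liver 3, from -0.036 to 0.043, and in liver 4, from -0.11 to 0.019. Depth limits Hspa1a, Hspb2 and the members under 1 FPKM, and a listed 0 cannot be told from a failed estimate.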

Other observations

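The genes outside the chaperone set whose values over the 4 livers lay nearest to the median profile of the stress-inducible members were Gramd1c, Btrc, Stx17, Zfp740, Gm608, Zfp958, Aggf1, Ppp5c, Eml3 and Spg11, in this order, among 10471 genes ranked by Euclidean distance on the centred log2(FPKM + 1) scale. Their distances ran from 0.0248 to 0.0353, and the profile itself has a length of 0.0827, so that it is nearly flat. Ppp5c, a phosphatase that binds HSP90, had 27.2, 25.7, 26.8 and 26.5 FPKM in livers 1 to 4. Likeness over 4 livers is a description only.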
